A study of Mus musculus with 7 samples.

Results

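Bidirectional promoters, from which neighbouring protein-coding genes are transcribed in opposite directions, were examined in mouse liver by ATAC-seq, which counts where a transposase can insert adapters into exposed DNA. An accessible region was a member when it overlapped a transcription start site (TSS) extended by 200 bp each way for protein-coding transcripts of 2 different genes on opposite strands, with the TSSs pointing away from each other and at most 1000 bp apart. This rule, applied with GENCODE M21 on GRCm38, took 974 of 55680 regions, which was 1.75% of all regions and 7.7% of the 12588 regions at a protein-coding TSS. The members held 1000 gene pairs with 1968 genes, and 945 of them held a single pair. Livers came from male C57BL/6N mice aged 3 months (young, 3 samples) or 18 months (aged, 4 samples). The 4 aged samples came from 3 animals, since 1 animal gave 2 liver lobules, and which samples share an animal is not stated, so p-values over these samples may be too small. Whole tissue was used, in which a change in the mix of cells and a change within cells cannot be told apart.

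Counts in all regions summed to between 4474652 and 25461110 per sample, and the median count of a member ran from 218 to 1152. All 974 members had counts in every sample, and 970 had at least 10 in each. The tissue label was checked on promoters of marker genes. All 10 hepatocyte markers had an accessible promoter region, with a summed level of 745 to 805 counts scaled to library size (CPM) in young and 904 to 1040 CPM in aged samples. Of 10 markers each, 1 had a region for Kupffer cells or macrophages, 6 for sinusoidal endothelial cells, 3 for stellate cells and 0 for lymphocytes, and 5 of 8 had one for cholangiocytes. The summed stellate level was 22.0 to 25.8 CPM in young and 13.1 to 20.6 CPM in aged samples, and the ranges of the ages overlapped for the other 3 lists with a region. No marker promoter was a member, and the part of these shifts in the results below was not tested.

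In a bidirectional arrangement the DNA between the TSSs serves as the upstream region of both genes, and a single stretch of open chromatin usually covers both starts. Such promoters are mostly CpG-rich, seldom carry a TATA box and are common among housekeeping genes, with DNA repair, mitochondrial and chaperone genes as textbook examples. Replication-dependent histone genes are another example, in which an H2A gene and an H2B gene diverge from a shared stretch that carries CCAAT boxes.

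The sequences between the TSSs are shown for members named for their change with age, their level or as a classical pair, where the stretch is 20 to 300 bases long and holds no annotated exon. These are 1 classical pair (Hadha-Hadhb), 4 of the 5 members with the largest increases with age, the 3 histone pairs among the largest decreases, and 2 of the 3 members with the highest level. Each is the plus strand of GRCm38, with the gene on the minus strand named first, so that the sequence starts next to its TSS. Capitals mark exact matches on either strand to 7 searched motifs, which are CCGGAAG for ETS factors, GCATGCG for NRF1, GGGCGG for SP1, CCAAT for the CCAAT box, TATAAA for the TATA box, AAGATGGCG for YY1 and TGACGTCA for the cAMP response element (CRE). No motif contains another, and matches may overlap, as the 2 NRF1 matches in Usp5-Cdca3 do.
Hadha-Hadhb (chr5:30155163-30155247): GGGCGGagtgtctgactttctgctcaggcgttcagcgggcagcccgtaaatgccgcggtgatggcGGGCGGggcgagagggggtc
Usp5-Cdca3 (chr6:124829485-124829546): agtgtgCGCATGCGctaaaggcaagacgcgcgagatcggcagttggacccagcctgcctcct
Rita1-Ddx54 (chr5:120612590-120612738): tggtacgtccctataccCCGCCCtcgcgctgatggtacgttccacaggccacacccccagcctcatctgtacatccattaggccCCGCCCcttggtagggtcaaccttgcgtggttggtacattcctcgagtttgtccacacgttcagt
Exd1-Chp1 (chr2:119547628-119547696): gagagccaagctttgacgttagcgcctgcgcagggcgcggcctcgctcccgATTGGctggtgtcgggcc
AL731706.1-Slx4ip (chr2:136891390-136891500): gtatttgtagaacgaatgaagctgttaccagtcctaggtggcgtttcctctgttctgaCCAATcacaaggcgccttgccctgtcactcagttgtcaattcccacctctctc
Hist1h2an-Hist1h2bp (chr13:21787219-21787460): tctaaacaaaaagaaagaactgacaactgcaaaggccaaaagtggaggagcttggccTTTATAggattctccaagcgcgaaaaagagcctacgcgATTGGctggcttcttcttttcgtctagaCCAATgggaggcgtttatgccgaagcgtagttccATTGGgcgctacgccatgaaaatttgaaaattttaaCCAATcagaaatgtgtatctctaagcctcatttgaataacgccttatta
Hist1h2ak-Hist1h2bn (chr13:21753828-21754122): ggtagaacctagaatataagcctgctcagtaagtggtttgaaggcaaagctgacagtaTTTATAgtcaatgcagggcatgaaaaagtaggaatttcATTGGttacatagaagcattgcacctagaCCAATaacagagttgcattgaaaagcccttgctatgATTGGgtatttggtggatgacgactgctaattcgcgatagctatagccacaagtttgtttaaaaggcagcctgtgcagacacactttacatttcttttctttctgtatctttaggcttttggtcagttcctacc
Hist1h2bl-Hist1h2ai (chr13:21716144-21716421): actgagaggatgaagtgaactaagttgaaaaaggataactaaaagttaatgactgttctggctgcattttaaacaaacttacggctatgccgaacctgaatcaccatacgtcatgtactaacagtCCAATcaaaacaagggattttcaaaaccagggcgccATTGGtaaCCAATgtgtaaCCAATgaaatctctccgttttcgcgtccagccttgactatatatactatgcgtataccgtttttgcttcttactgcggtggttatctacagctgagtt
Sphk2-Rpl18 (chr7:45715208-45715456): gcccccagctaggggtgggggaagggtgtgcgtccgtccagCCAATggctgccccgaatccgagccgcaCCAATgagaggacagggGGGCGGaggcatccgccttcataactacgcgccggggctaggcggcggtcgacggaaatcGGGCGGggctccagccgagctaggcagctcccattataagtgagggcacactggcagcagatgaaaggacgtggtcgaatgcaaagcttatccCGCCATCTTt
Nek8-Tlcd1 (chr11:78176676-78176710): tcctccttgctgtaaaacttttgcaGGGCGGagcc

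The histone stretches were AT-rich, with a GC content of 40.3% to 42.6%, and held 3 or 4 CCAAT boxes each on both strands. A TATA box was matched in 2 of those 3 stretches, in Hist1h2an-Hist1h2bp and Hist1h2ak-Hist1h2bn. The stretches of the remaining 7 pairs had a GC content of 49.5% to 69.6% and no TATA match. Sphk2-Rpl18 held 2 CCAAT boxes, 2 SP1 matches and a YY1 match beside the start of the ribosomal protein gene Rpl18, and Hadha-Hadhb and Rita1-Ddx54 held 2 SP1 matches each. A match describes the letters and is not evidence of binding.

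Most pairs were close together. The median distance between the TSSs of a pair was 117 bp, with an interquartile range of 63 to 226 bp and a full range of 1 to 987 bp, and 833 of 1000 pairs (83.3%) lay at most 300 bp apart. In 592 pairs no annotated exon lay between the starts. The annotation holds 1096 diverging pairs of this kind, of which 1000 had 1 region over both TSS windows, 21 had a region at 1 TSS only, and 75 had no region at either. No pair had separate regions at its starts. Both TSSs lay inside the region in 950 members, and the centre of the region lay a median of 155 bp from the midpoint between the TSSs. At the limit of the rule, the widest pairs inside were Btf3l4-Txndc12 at 987 bp, with means of 54.5 CPM in young and 68.2 CPM in aged samples, and Zfyve26-Rad51b at 978 bp, with 47.4 and 51 CPM. The nearest outside were Nacc1-Trmt1 at 1004 bp, with 41.6 and 36.7 CPM, and Ddias-Prcp at 1005 bp, with 75.3 and 91.6 CPM.

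Members were compared with 9636 single-gene promoters, which are regions at the TSS of 1 protein-coding gene and of no other annotated gene. Members were longer, with a median of 1403 bp against 1230 bp, and richer in CpG, with a median observed over expected ratio of 0.74 against 0.673, at a similar GC content (58.8% against 58.3%). Per kilobase, the median level was 4.95 log2 CPM in members and 4.44 in single-gene promoters. Regions with a protein-coding gene and a diverging noncoding gene, of which there were 975, lay close to the members, with a median length of 1391 bp, a CpG ratio of 0.756 and 4.83 log2 CPM per kilobase. Members were found on every chromosome with regions except Y, and their share of the regions at a protein-coding TSS ran from 4.75% on chromosome 6 to 10.4% on chromosome 17.

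Motifs were counted in windows from 250 bases before to 50 bases after each TSS, 1948 for the members and 9636 for the single-gene promoters. The ETS letters were matched in 29.7% of member windows and 14.4% of single-gene windows, against 16.3% over the 12588 regions at a protein-coding TSS. The SP1 letters were matched in 69.6% and 63.0%, against 64.4% overall. The CCAAT letters were matched in 41.0% and 36.4%, against 36.6% overall. TATAAA had the opposite order, with 4.0% of member windows, 6.75% of single-gene windows and 6.43% overall. Matches to YY1 were in 5.24% and 2.71% (3.07% overall), to the CRE in 4.62% and 2.77% (3.07% overall) and to NRF1 in 8.01% and 5.73% (5.93% overall). The windows of a pair share bases when the TSSs are near, so member windows are not independent, and these shares are a description without a test.

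**Figure D1:**
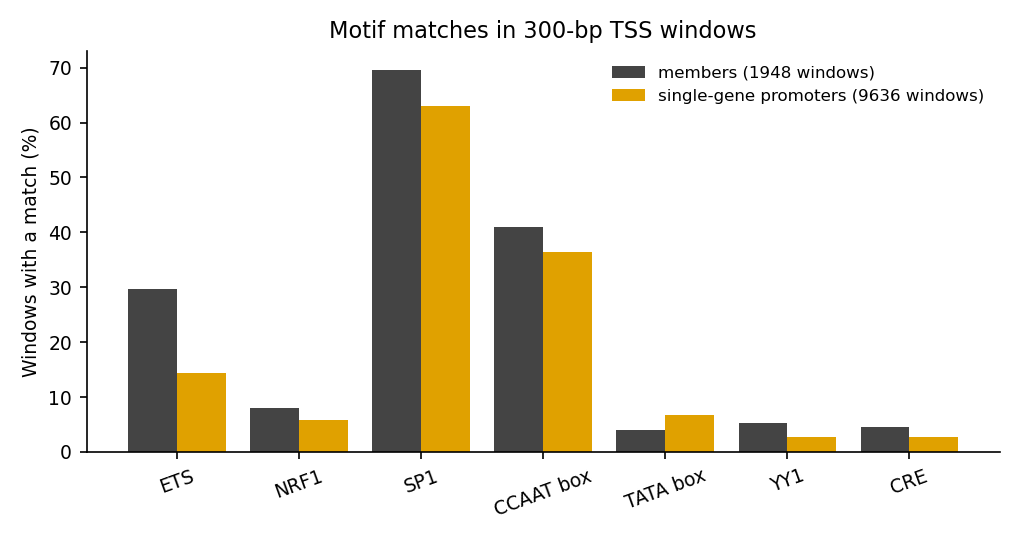
Share of 300-bp TSS windows (y axis, percent) with a match on either strand to each of 7 motifs (x axis), for 1948 windows of members (dark bars) and 9636 windows of single-gene promoters (yellow bars). ETS matches were in 29.7% of member windows and 14.4% of single-gene windows, and TATA box matches in 4.0% and 6.75%.

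The comparison of aged with young liver asked how accessibility at these shared promoters differed between 3 and 18 months. In the edgeR quasi-likelihood test on all regions with Benjamini-Hochberg adjustment at 0.05, 59 members (6.06%) were more accessible in aged liver, where 2.44% of all 55680 regions were, and 7 members (0.719%) were less accessible, where 3.30% of all regions were. Single-gene promoters, which were also read in the same samples, gave 427 (4.43%) and 165 (1.71%). The more accessible members rose by 0.37 to 0.65 on the log2 scale, with a median of 0.48, and 53 of the 59 lay in the upper 5 of 10 bins of level. The 7 less accessible members had log2 fold changes of -1.62 to -0.57. In 908 members no difference passed the threshold. Every aged sample lay above every young sample in 281 members (28.9%, against 10.2% of all regions) and below in 51 members (5.24%, against 11.6%). Over all members the median log2 fold change was 0.20, with 750 of 974 (77.0%) above 0, whereas over all regions the median was -0.035 with 46.6% above 0.

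The number of calls depended on single samples, on the tool and on scaling. It fell to 0 more accessible members without aged replicate 1, to 1 without young replicate 1, young replicate 2 or aged replicate 3, and to 26 without young replicate 3, and it rose to 93 without aged replicate 2. Calls of higher accessibility over all 55680 regions, 1360 with every sample, moved too, to 129 without aged replicate 1, 55 without young replicate 1, 196 without young replicate 2, 176 without aged replicate 3, 1056 without young replicate 3 and 1454 without aged replicate 2. Less accessible members fell to 0 without young replicate 1, to 2 without aged replicate 1, to 3 without young replicate 2 and to 4 without aged replicate 2 or 3, where all regions gave 133, 273, 250, 1444 and 475 in that order, against 1838 with every sample. When 2 aged samples were summed, as for a shared animal, more accessible members numbered 2 (replicates 1 and 3), 19 (3 and 4), 28 (1 and 4), 31 (2 and 3), 44 (1 and 2) and 121 (2 and 4), where the shares over all regions were 0.483%, 1.31%, 2.06%, 1.26%, 1.87% and 3.89%. DESeq2 called 148, limma-voom 107 and edgeR with offsets on GC content 221 members more accessible, beside 2760 (4.96%), 2197 (3.95%) and 3495 (6.28%) of all regions. With offsets fitted on mean abundance, 0 members were more and 5 less accessible, beside 269 and 561 of all regions, and the median was -0.009. With scaling by total counts, 18 were more and 14 less accessible, beside 543 and 2931 of all regions, and the median was 0.083 where that of all regions was -0.153.

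Fold changes followed the level of the promoter. Across the 974 members, the Spearman correlation of the log2 fold change with the mean log2 CPM was 0.69, and it was 0.69 across the 9636 single-gene promoters too (both are descriptions over regions that share the same libraries). The members were therefore compared with single-gene promoters within 10 bins of level. In the weakest bin (members at 0.80 to 4.21 log2 CPM) the median log2 fold change was -0.27 for 98 members and -0.225 for 3422 single-gene promoters. In the strongest (members at 6.60 to 7.72 log2 CPM) it was 0.383 for 98 members and 0.357 for 464 single-gene promoters. For single-gene promoters the weakest bin had no lower limit and the strongest no upper limit. The difference ran from -0.079 to 0.026 over the bins, was above 0 in 5 of 10 and averaged -0.0079. At the calling rates of the single-gene promoters in each bin, 68.1 more and 5.66 less accessible regions among 974 would be counted, beside the 59 and 7 members observed. Against promoters with a diverging noncoding gene the same difference was 0.014, and against the 294 regions with several protein-coding genes that do not diverge it was 0.013. When the bins were made on GC content or on region length in place of level, members lay above single-gene promoters by 0.096 and 0.08.

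**Figure D2:**
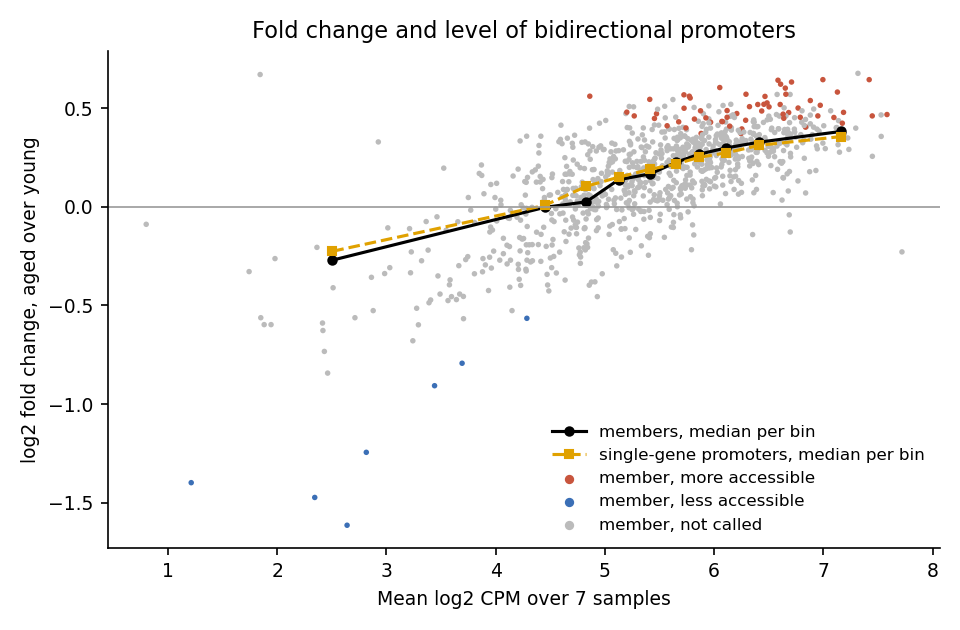
The log2 fold change of aged over young liver (y axis) against the mean log2 CPM over 7 samples (x axis) for 974 members, one point each, coloured by the edgeR call (adjusted p under 0.05). Lines join the medians of the members (black) and of single-gene promoters (yellow) in 10 bins of level, which ran together from -0.27 and -0.225 in the weakest bin to 0.383 and 0.357 in the strongest.

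The same was computed in single samples. The median log2 CPM of the members was 5.498, 5.451 and 5.327 in young replicates 1 to 3 and 5.683, 5.495, 5.675 and 5.652 in aged replicates 1 to 4. Aged replicate 2 lay below young replicate 1, so the ages overlapped, and the means were 5.43 ± 0.088 (SD, n = 3) and 5.63 ± 0.088 (SD, n = 4). For single-gene promoters the medians were 4.772, 4.746 and 4.772 in young and 4.889, 4.81, 4.877 and 4.85 in aged samples, and there the ages did not overlap. Members took 4.87% ± 0.30 (SD, n = 3) of all counts at 3 months and 5.32% ± 0.23 (SD, n = 4) at 18 months. For the difference between members and single-gene promoters of similar level, young samples gave 0.0951, 0.0792 and 0.0054 and aged samples gave 0.0889, 0.0201, 0.0772 and 0.0381 log2 CPM. The means were 0.0599 ± 0.048 (SD, n = 3) and 0.0561 ± 0.032 (SD, n = 4), so the ages differed by -0.0038, which is far less than the spread between samples.

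**Figure D3:**
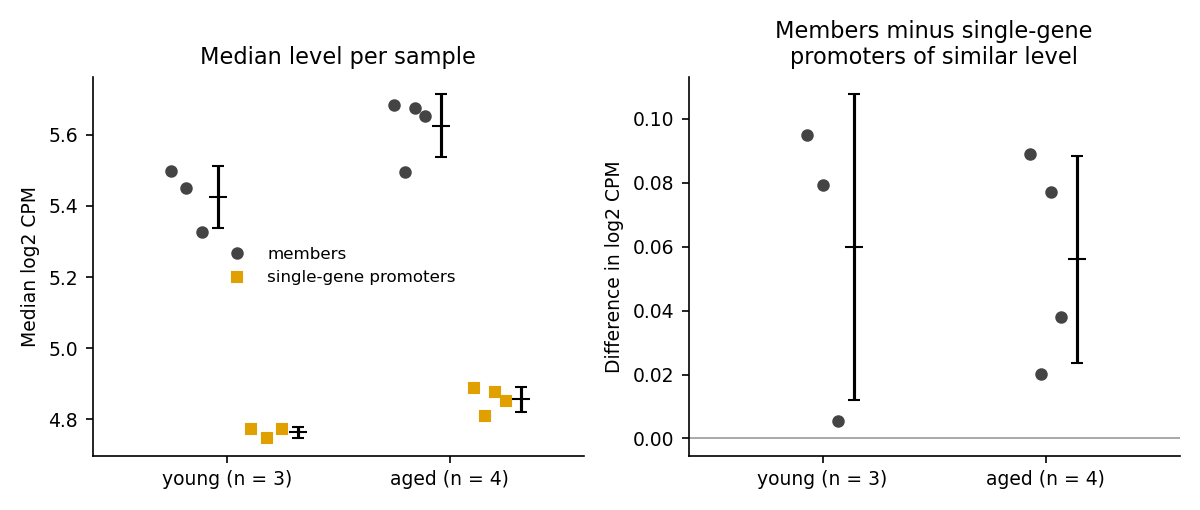
Left, the median log2 CPM (y axis) of members (circles) and single-gene promoters (squares) in each young (n = 3) and aged (n = 4) sample. Right, the difference in log2 CPM between members and single-gene promoters within bins of level, with the mean and SD as bars in both panels, at 0.0599 ± 0.048 in young and 0.0561 ± 0.032 in aged samples.

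Among the called members in which every aged sample lay above every young one, the largest increase was at Usp5-Cdca3 (chr6:124828404-124830187), where Usp5, an enzyme that takes apart free ubiquitin chains, diverges from the cell division gene Cdca3 at a distance of 63 bp. Young samples had 152, 143 and 107 CPM and aged samples 206, 167, 203 and 264 CPM. The log2 fold change was 0.65 ± 0.159 (SE, edgeR adjusted p = 0.0332), and aged replicate 4 was the highest of all. Rita1-Ddx54 (chr5:120612267-120613731) pairs a regulator of Notch signalling with an RNA helicase gene. It had 117, 104 and 78.1 CPM in young and 158, 123, 168 and 176 CPM in aged samples, with a log2 fold change of 0.65 ± 0.152 (SE, edgeR adjusted p = 0.0286). In Exd1-Chp1 (chr2:119546632-119548995), where Chp1 encodes a calcium-binding partner of sodium-proton exchangers, the young samples were close together at 73.8, 76.6 and 73.8 CPM. Its aged samples had 124, 89.6, 130 and 123 CPM, with aged replicate 2 apart from the others, and the log2 fold change was 0.64 ± 0.130 (SE, edgeR adjusted p = 0.017).

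Slx4ip, whose product binds the DNA repair scaffold SLX4, diverges at chr2:136890781-136892402 from AL731706.1 and from Mkks, a chaperonin-like gene of Bardet-Biedl syndrome. The region had 93.4, 83.4 and 68.2 CPM in young and 126, 112, 123 and 147 CPM in aged samples, with a log2 fold change of 0.63 ± 0.132 (SE, edgeR adjusted p = 0.0184). Hacl1-Btd (chr14:31639084-31642294) pairs a peroxisomal lyase of fatty acid alpha-oxidation with biotinidase, which recycles biotin. Its values were 66.6, 85.8 and 77.4 CPM in young and 134, 94.7, 124 and 119 CPM in aged samples, with a log2 fold change of 0.62 ± 0.135 (SE, edgeR adjusted p = 0.0209). All 5 lay in the upper 2 bins of level, in which the single-gene promoters had medians of 0.313 and 0.357. With offsets on mean abundance and in each fit without 1 sample the fold changes of these 5 kept their sign, and the adjusted p was under 0.05 in 11 to 16 of 21 alternative fits and reached 0.248 at Usp5-Cdca3, 0.187 at Rita1-Ddx54, 0.15 at Exd1-Chp1, 0.126 at AL731706.1-Slx4ip and 0.247 at Hacl1-Btd.

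Of the 5 largest decreases, 3 were at H2A and H2B histone pairs of the large cluster on chromosome 13, among them the first 2 in size. Hist1h2an-Hist1h2bp (chr13:21786891-21787821) had 14, 11.8 and 9.37 CPM in young and 3.87, 2.16, 6.07 and 3.56 CPM in aged samples. The groups did not overlap, and the log2 fold change was -1.62 ± 0.274 (SE, edgeR adjusted p = 0.011). Hist1h2ak-Hist1h2bn (chr13:21753317-21754609) had 9.53, 8.84 and 7.89 CPM in young and 3.25, 2.75, 4.67 and 2.29 CPM in aged samples, with a log2 fold change of -1.47 ± 0.257 (SE, edgeR adjusted p = 0.0111). Hist1h2bl-Hist1h2ai (chr13:21715833-21717094) had 12, 10.5 and 11.2 CPM in young and 4.04, 3.73, 6.54 and 4.96 CPM in aged samples, with a log2 fold change of -1.24 ± 0.226 (SE, edgeR adjusted p = 0.0121). Aged replicate 3 was the highest aged sample at all 3 pairs. These genes encode core histones made during DNA replication. No second locus matched 80% of any of the 3 regions at 95% identity, and shorter shared stretches were not counted. Over 21 alternative fits, 20 kept an adjusted p under 0.05 for the first 2 pairs and 19 for Hist1h2bl-Hist1h2ai, with highest values of 0.0583, 0.06 and 0.0642.

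The other decreases lay at weak promoters too. Kctd19-Lrrc36, the third in size (chr8:105413448-105413883), with a gene of the meiotic programme and a leucine-rich repeat gene, had 5.74, 3.36 and 2.96 CPM in young and 1.67, 1.18, 0.70 and 2.16 CPM in aged samples. Its counts were only 3 to 19 in the aged samples, and the log2 fold change was -1.40 ± 0.368 (SE, edgeR adjusted p = 0.0416). Enkd1-4933405L10Rik (chr8:105707781-105708557) had 20.2, 12.8 and 13.6 CPM in young and 9.58, 8.43, 7.70 and 7.13 CPM in aged samples, with a log2 fold change of -0.91 ± 0.208 (SE, edgeR adjusted p = 0.0261). Kctd19-Lrrc36 passed in 11 of 20 alternative fits and Enkd1-4933405L10Rik in 14 of 21, with adjusted p up to 0.185 and 0.138. The remaining 2 called decreases, named after their values were seen, were Noc4l-Ddx51 at -0.79 and 4933427D14Rik-Txndc17 at -0.57. The 5 largest decreases all lay in the weakest bin, in which the single-gene promoters had a median of -0.225.

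**Figure D4:**
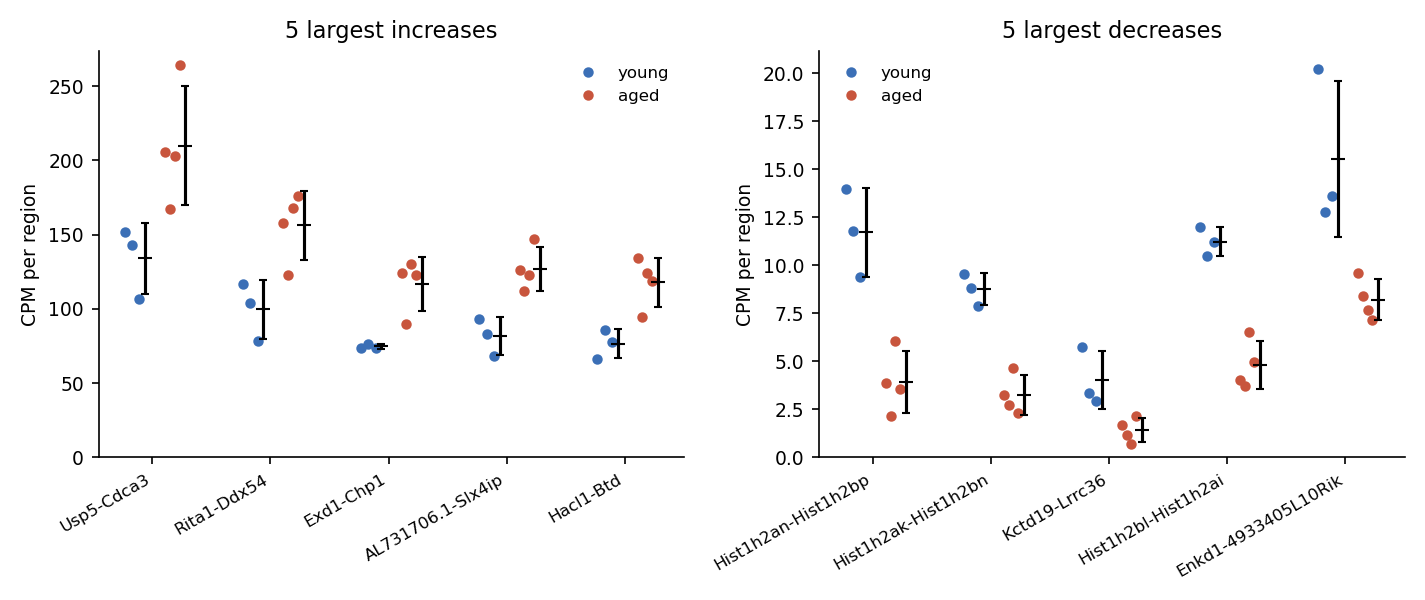
CPM per region (y axis, from 0) in each young (blue, n = 3) and aged (red, n = 4) sample at the 5 members with the largest increases (left) and the 5 with the largest decreases (right), with the mean and SD as bars. The values reached 264 CPM at Usp5-Cdca3 and lay at or below 20.2 CPM in the right panel, and the ages did not overlap at any of the 10, which the choice of these members required.

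The strongest members by mean CPM did not move alike. Sphk2-Rpl18 (chr7:45710615-45715515), which joins sphingosine kinase 2 and a protein of the large ribosomal subunit, is the longest member at 4901 bp. It had 250, 254 and 197 CPM in young and 151, 269, 193 and 188 CPM in aged samples, which overlapped, and its log2 fold change was -0.23 ± 0.168 (SE, edgeR adjusted p = 0.427). Nek8-Tlcd1 (chr11:78176221-78179213), with the gene of a ciliary kinase, rose from 166, 165 and 147 CPM in young to 206, 210, 225 and 241 CPM in aged samples, with a log2 fold change of 0.47 ± 0.110 (SE, edgeR adjusted p = 0.0281). It passed in 11 of 21 alternative fits, and with offsets on mean abundance its fold change was 0.05 and the adjusted p reached 0.82. At Pcsk4-Reep6 (chr10:80329307-80333558) the young samples had 170, 168 and 125 CPM and the aged samples 202, 198, 204 and 250 CPM. The groups did not overlap there, and with a log2 fold change of 0.47 ± 0.135 (SE) the edgeR adjusted p was 0.0557. Per kilobase these regions had means of 43.8, 64.9 and 44.3 CPM, below the 99.4 CPM of Usp5-Cdca3.

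Of 20 pairs listed as candidates for classical divergent pairs, 10 were members. Not all of the others diverge in this annotation. Some overlap at their starts (as Paics-Ppat, where the plus-strand start lies at -196 bp from the other). Some have starts that face each other from afar (as Etfdh-Ppid, at -37332 bp) or point apart at too great a distance (as Col4a1-Col4a2, at 33149 bp). The rest are not on opposite strands of the same chromosome (as Hist1h2ab-Hist1h2bb, on the same strand). None of the 10 passed the threshold in the edgeR test, and 5 passed in some alternative fits. Of 21 such fits, these were 6 at Mrps12-Sars2, 4 at Mcm4-Prkdc and 4 at Gart-Son, each including DESeq2, and 1 each at Brca1-Nbr1 (offsets on GC content) and Surf1-Surf2 (total counts). Hspd1-Hspe1, the mitochondrial chaperonin and its co-chaperonin, had means of 74.9 ± 11.4 CPM (SD, n = 3) at 3 months and 91.2 ± 8.04 CPM (SD, n = 4) at 18 months, with 3 of 4 aged samples above every young one. Hadha-Hadhb, the subunits of the mitochondrial trifunctional protein of fatty acid oxidation, had 34.5 ± 1.51 CPM (SD, n = 3) and 37.9 ± 3.52 CPM (SD, n = 4).

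Among these 10, 3 pairs hold a gene of the DNA damage response. Atm-Npat, a checkpoint kinase gene and a coactivator of histone genes, had a log2 fold change of 0.33 (edgeR adjusted p = 0.138), and all 4 aged samples lay above the young ones. Brca1-Nbr1, a homologous recombination gene and an autophagy receptor gene, had 0.35 (edgeR adjusted p = 0.128), with 3 of 4 aged samples above. Mcm4-Prkdc, a subunit of the replicative helicase and the DNA-dependent protein kinase, had 56.4, 58.5 and 40.6 CPM in young and 77.0, 65.3, 77.0 and 65.5 CPM in aged samples. The groups did not overlap there, with a log2 fold change of 0.45 (edgeR adjusted p = 0.0654).

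At Sirt3-Psmd13, a mitochondrial deacetylase gene and a proteasome lid gene, the log2 fold change was 0.23 (edgeR adjusted p = 0.188). Mrps12-Sars2, both with products in mitochondrial translation, came nearest to the threshold among the 10 pairs, with 0.51 (edgeR adjusted p = 0.0505). Its young samples had 35.3, 34.1 and 24.8 CPM and its aged samples 50.9, 38.8, 43.7 and 46.1 CPM, without overlap. Mrpl18-Tcp1, a mitochondrial ribosomal protein gene and a subunit of the cytosolic chaperonin, had 0.40 (edgeR adjusted p = 0.14), and Gart-Son, a purine synthesis gene and a splicing factor gene, had 0.43 (edgeR adjusted p = 0.0755). Surf1-Surf2, an assembly factor gene of cytochrome c oxidase and its neighbour, was the only 1 of the 10 with a negative fold change. It had 40.1, 38.5 and 37.2 CPM in young and 30, 32.4, 32.7 and 30.8 CPM in aged samples without overlap, at -0.30 (edgeR adjusted p = 0.118).

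Gene lists differed in how often their genes sat in members. Of all 21853 annotated protein-coding genes, 9.01% did. The share was 37.7% of 138 genes of DNA repair and checkpoints, 32.5% of 77 mitochondrial ribosomal protein genes, 31.3% of 67 replication-dependent histone genes, 30.8% of 39 mitochondrial chaperone, protease and import genes and 29.9% of 97 oxidative phosphorylation subunit genes. It was 27.9% of 43 fatty acid oxidation and peroxisome genes, 25.9% of 58 RNA polymerase and Mediator subunit genes, 24.3% of 37 aminoacyl-tRNA synthetase genes, 23.5% of 81 cytosolic and ER chaperone genes, 22.9% of 48 proteasome genes and 21.3% of 94 DNA replication and cell cycle genes. It was 14.5% of 83 cytosolic ribosomal protein genes, 6.35% of 394 Zfp zinc finger genes, 4.17% of 24 purine and pyrimidine synthesis genes and 0 of 6 collagen type IV genes. Partners within 1 list were rare outside the histones, in which 10 pairs had both genes in the list. Others were Mrpl46-Mrps11, Hars-Hars2, Hspa1a-Hspa1l, Hspd1-Hspe1, Hadha-Hadhb and the zinc finger pairs Zfp668-Zfp646, Zfp944-Zfp758 and Zfp942-Zfp943. These lists were partly made for genes known from divergent pairs, and the shares are given without a test.

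With age, each list is given by its member regions, beside the 6.06% more accessible, the 0.719% less accessible and the median of 0.20 over all members. Most lists hold so few regions that 1 or 2 calls set their share. Of 52 regions with a DNA repair or checkpoint gene, 1 was more and 0 were less accessible, 39 had a fold change above 0 and the median was 0.15. The call was Mospd2-Fancb, with a gene of the Fanconi anaemia core complex, which had 30.2 ± 4.78 CPM (SD, n = 3) at 3 months and 42.5 ± 2.41 CPM (SD, n = 4) at 18 months (edgeR adjusted p = 0.0439). It passed in only 5 of 21 alternative fits, with adjusted p up to 0.234, and in none of those that left out 1 sample. Of 20 regions of DNA replication and cell cycle genes, 1 was more accessible, and the median was 0.14. That was Cdc45-Ufd1, with a subunit of the replicative helicase complex, at 36.7 ± 1.40 CPM (SD, n = 3) and 50 ± 5.05 CPM (SD, n = 4) (edgeR adjusted p = 0.0402), and it passed in 9 of 21 alternative fits, with adjusted p up to 0.261.

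Among mitochondrial lists, 2 of 24 regions with a mitochondrial ribosomal protein gene and 2 of 29 with an oxidative phosphorylation subunit gene were more accessible, and none of these was less, with medians of 0.09 and 0.10. The smallest adjusted p was at Ncapd2-Mrpl51, which pairs a condensin subunit with a mitochondrial ribosomal protein, with 57.9 ± 4.56 CPM (SD, n = 3) at 3 months and 79.5 ± 3.68 CPM (SD, n = 4) at 18 months (edgeR adjusted p = 0.028). In the second list it was at Wdr4-Ndufv3, with a subunit of respiratory complex I, at 43.4 ± 2.92 CPM (SD, n = 3) and 61.2 ± 5.84 CPM (SD, n = 4) (edgeR adjusted p = 0.0263). Of 21 alternative fits, Ncapd2-Mrpl51 passed in 12 and Wdr4-Ndufv3 in 15, with adjusted p up to 0.396 and 0.201. None of 11 regions of mitochondrial chaperone, protease and import genes passed (median 0.06, smallest adjusted p of edgeR 0.109 at Timm21-Fbxo15), and none of 12 regions of fatty acid oxidation and peroxisome genes did (median 0.15).

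Chaperone genes of the cytosol and ER gave 1 call among 18 regions (median 0.24). It was Dnajc17-Zfyve19, with a gene of the DnaJ family of Hsp70 co-chaperones, which had 75.7, 72.0 and 69.9 CPM in young and 106, 100, 108 and 105 CPM in aged samples (log2 fold change 0.53 ± 0.101, SE, edgeR adjusted p = 0.0143), and it passed in 16 of 21 alternative fits with adjusted p up to 0.233. Of 22 regions of Zfp genes, 2 were more accessible (median 0.26). The smaller adjusted p was at Mrpl50-Zfp189, with 45.5 ± 1.92 CPM (SD, n = 3) and 60.2 ± 3.93 CPM (SD, n = 4) (edgeR adjusted p = 0.0438), which passed in 7 of 21 alternative fits with adjusted p up to 0.394. Of 10 regions of replication-dependent histone genes, the 3 named above were less accessible and 0 were more, 5 had a fold change above 0, and the median was -0.06. Histone promoters outside the members gave 6 less and 1 more accessible among 27 regions, with a median of -0.032.

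No member passed among 13 regions of cytosolic ribosomal protein genes, where the median fold change was near 0 and the smallest adjusted p was at Zwilch-Rpl4 (-0.44, edgeR adjusted p = 0.127). Its 4 aged samples, with 9.67 to 12.8 CPM, lay below the young ones at 14.3 to 16.1 CPM. No member passed either among 11 regions of proteasome genes (median 0.09), 15 of RNA polymerase and Mediator genes (median 0.14), 8 of aminoacyl-tRNA synthetase genes (median 0.16) or the 1 of purine and pyrimidine synthesis. The smallest adjusted p was at Mrps12-Sars2 among the synthetase genes and at Gart-Son in purine synthesis, both given above. In the proteasome and Mediator lists it was at Psme2-Rnf31, with a gene of the proteasome activator PA28, at 0.47 (edgeR adjusted p = 0.0629), and Tmx2-Med19, with a Mediator gene, at 0.51 (edgeR adjusted p = 0.0697).

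Wider pairs had larger fold changes and higher levels. The median log2 fold change was 0.089 in 177 members with starts 1 to 50 bp apart, 0.163 in 424 at 51 to 150 bp, 0.247 in 217 at 151 to 300 bp and 0.296 in 156 at 301 to 1000 bp. The calls of higher accessibility were 8, 19, 11 and 21 in that order, which is 4.52%, 4.48%, 5.07% and 13.5% of the members. The median level per kilobase was 4.72, 4.84, 5.20 and 5.30 log2 CPM in the same order. Between members over 150 bp and up to 150 bp, the medians were 0.271 and 0.143, and within bins of level the difference was 0.006, from -0.133 to 0.096. Across members the Spearman correlation of the TSS distance was 0.27 with the fold change and 0.28 with the mean log2 CPM (n = 974 regions of the same libraries, a description).

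**Figure D5:**
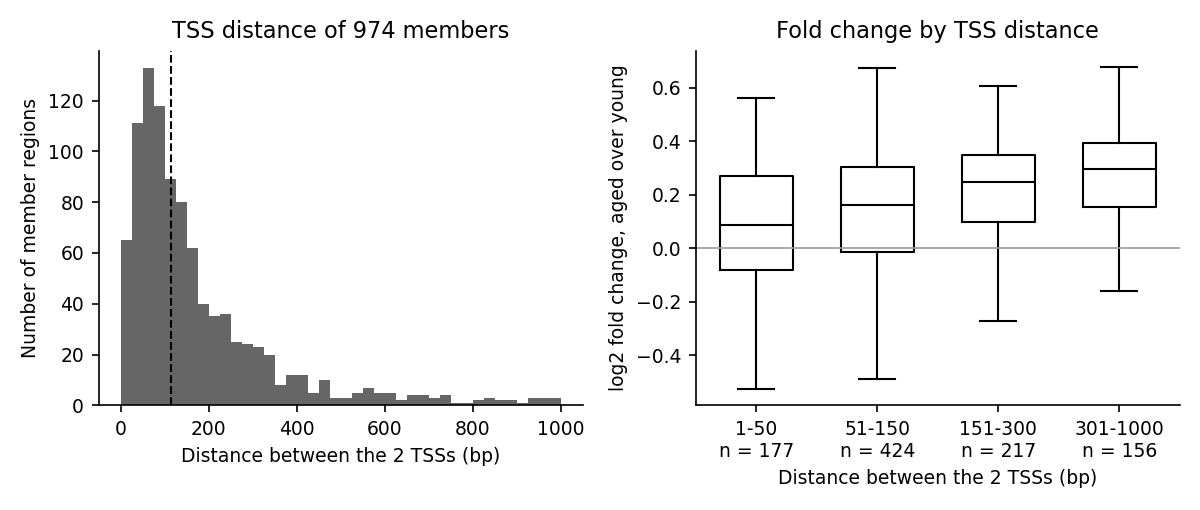
Left, number of member regions (y axis) by the distance between the TSSs in bp (x axis, bins of 25 bp), with the median dashed. Right, the log2 fold change of aged over young liver in 4 classes of distance, as box (quartiles and median) and whiskers (to 1.5 times the interquartile range), with medians of 0.089, 0.163, 0.247 and 0.296 from the closest to the widest class.

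Motif matches were also set beside the age comparison, as a description over motifs chosen for promoters in general. The 468 members with a CCAAT match in either window had a median log2 fold change of 0.254 and the 506 without had 0.13. Within bins of level the difference was 0.071, and it was above 0 in 9 of 10 bins. In single samples, the same difference in log2 CPM was -0.029, 0.026 and -0.078 in young and 0.096, 0.046, 0.04 and 0.089 in aged samples, so the ages did not overlap. Single-gene promoters showed a like difference, at 0.067 for 3507 with and 6129 without the letters, above 0 in 10 of 10 bins. For the 6 other motifs the difference within bins of level was -0.022 to -0.003 among members, for example -0.003 for the 331 members with ETS letters. Among single-gene promoters the 6 ran from -0.06 for the CRE, which was below 0 in 10 of 10 bins, and -0.037 for SP1 to 0.026 for the TATA box. The CRE difference in single samples was 0.019, 0.053 and 0.011 in young and -0.004, -0.011, -0.011 and -0.052 in aged single-gene promoters, so CCAAT was not the sole motif at which the ages did not overlap. The CCAAT result was singled out after its values were seen, and no test was run on it.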

How the data were processed

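ATAC-seq of 3 young and 4 aged livers was analysed. The authors trimmed reads (cutadapt 1.13), aligned them to GRCm38 (Bowtie2 2.4.1), filtered for quality, duplicates and mitochondrial reads, called peaks per library (MACS2 2.2.7) and deposited raw counts (featureCounts) for 55680 consensus regions in which 2 or more libraries had a peak. These counts carry no molecular identifiers. Tool names and versions are from the submitters' processing notes.

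Regions were annotated with GENCODE M21 protein-coding transcripts in Python 3.11.15 (numpy 2.4.6, pandas 2.3.3), with GC content and motifs from the GRCm38 sequence (samtools 1.23.1). Near-identical copies (80% covered at 95% identity) were sought with minimap2 2.31 and found for 4 members. Ages were compared with edgeR 4.0.16 (R 4.3.3) on all regions without a filter on low counts, with TMM normalization, age as the only factor, the quasi-likelihood test and Benjamini-Hochberg adjustment. The SE of a fold change is its size over the square root of F. Levels are CPM, or log2 CPM with a prior count of 2. Bins of level were deciles of the members' mean log2 CPM, and differences of medians were averaged over bins by number of members. Libraries of an age differed by more than sampling noise (chi-square per degree of freedom 2.38 to 6.06). Alternatives were DESeq2 1.42.0, limma 3.58.1 (voom), other scalings, filters, samples, annotations and bins. Figures were drawn with matplotlib 3.10.9.

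Named members are the classical pairs, the 5 largest increases and 5 largest decreases among called members without overlap of the ages, the 3 highest mean CPM and, in each gene list, the member with the smallest adjusted p. The member that this rule names for 1 list is not reported here. The members, gene lists and marker lists were chosen with earlier results of these data known. Other assays of the study were not used here.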

Additional observations from a re-analysis of the deposited data

Results flagged for a closer look

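Among 37 values tested in the 4 aged samples, 6 had 1 sample far from the other 3 by Dixon's test at the 95% level, where chance gives about 1 in 20. Aged replicate 2 was the lowest in 5 of them, with 6.49 log2 CPM at Exd1-Chp1, 5.77 at Mrpl50-Zfp189, 5.63 at Tmx2-Med19, a median of 5.495 over all members and a share of 4.971% of all counts in members. Aged replicate 4 was the highest at Pcsk4-Reep6, with 7.97 log2 CPM. These values are not independent of each other, since all come from the same libraries. Aged replicate 2 had 5108283 counts in regions, between those of aged replicates 3 and 4, and the causes were not tested.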

How the results depend on the processing

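The median log2 fold change of the members, 0.201, lay between 0.163 and 0.233 under all alternatives except scaling by total counts (0.083) and offsets on mean abundance (-0.009). The difference from single-gene promoters of similar level, -0.008, lay between -0.036 and 0.006 except when regions were matched on GC content (0.096) or region length (0.08).

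Calls of more accessible members, 59, were 148 with DESeq2, 107 with limma-voom, 221 with offsets on GC content and 0 with offsets on mean abundance. They were 18 with total counts, 12 with at least 10 counts in every sample, 0 at an adjusted p under 0.01, and 0 to 93 when single samples were left out. With TSSs at most 300 bp apart, 38 of the 818 members then taken were called. Summing aged samples gave 2 (1 and 3), 28 (1 and 4), 31 (2 and 3), 121 (2 and 4) and 19 (3 and 4). Calls of less accessible members, 7, were 14 with total counts, 4 with at least 10 counts in every sample, 0 at an adjusted p under 0.01, 0 to 7 without single samples, and 4, 3 and 4 with aged samples 1 and 2, 1 and 3, and 2 and 3 summed. Where edgeR made 0 calls of more accessible members, 33 (offsets on mean abundance) and 263 (without aged replicate 1) had an unadjusted p under 0.05, and without young replicate 1 there were 19 less accessible members at that level. At an adjusted p under 0.01, DESeq2 gave 36 more and 4 less accessible members and limma-voom 0 and 1, and edgeR had 374 and 40 at an unadjusted p under 0.05. In that edgeR fit, 13699 of all 55680 regions and 414 of 974 members had an unadjusted p under 0.05 in either direction. For the other fits at that level, and at 0.01, counts over all regions are not given. Those member counts therefore have no base rate here. At an adjusted p under 0.05, more accessible regions over the whole set were 4.96% with DESeq2, 3.95% with limma-voom and 6.28% with offsets on GC content. They were 0.483% with offsets on mean abundance, 0.975% with total counts, 1.11% with at least 10 counts in every sample and 0.0988% to 2.93% without single samples, against 2.44%. Less accessible regions were 5.26% with total counts, 1.69% with at least 10 counts in every sample and 0.239% to 4.67% without single samples, against 3.30%. With aged samples 1 and 2, 1 and 3, and 2 and 3 summed, they were 2.37%, 1.24% and 1.99%. The causes of these changes were not tested.

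Samples with the same replicate number in both ages had correlations of deviations of -0.119, 0.056 and 0.03, so they share only a number. With a replicate block there were 30 more and 9 less accessible members, beside 1485 (2.67%) and 2593 (4.66%) of all regions. Over 34 named members and 713 values under alternative fits, 554 kept their direction and side of the threshold, 128 no longer passed, 28 newly passed and 3 reversed, all with offsets on mean abundance (Hspd1-Hspe1 at -0.018, Hadha-Hadhb at -0.03 and Sirt3-Psmd13 at -0.067). The difference by CCAAT match, 0.071, was 0.059 to 0.094 over the same fits and 0.114 when matched on GC content. Depth limits weak members most: the least covered held 3 counts in a sample.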
